A study of Homo sapiens with 4 samples.

Results

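Genes that carry iron and zinc into, within and out of cells were measured in THP-1 cells, a human monocytic leukemia line, on 4 GeneChip arrays. The group was chosen by gene symbol and comprised TFRC, FTH1, FTL, SLC40A1, SLC11A1, SLC11A2, SLC39A8, SLC39A14, SLC30A1 and IREB2. Of these 10 genes, 8 had at least 1 probe set listed for that gene alone, out of 19775 genes with such a probe set. FTH1 and IREB2 had none in the annotation used and are not analysed here. The group was proposed because TFRC had been seen to rise with bacteria in these same arrays, so the values with bacteria below describe that choice and support nothing beyond it.

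The arrays were Siglec-14,NTHi[+], Siglec-14,NTHi[−], Siglec-5,NTHi[+] and Siglec-5,NTHi[−], with 1 array each. The lines Siglec-14/THP-1 and the matching Siglec-5/THP-1 are sublines of THP-1 made to express the named receptor, as models of monocytes from people with and without the SIGLEC14 gene. The sources used here do not say whether a subline is a single clone. All cells were kept for 6 h in a serum-free macrophage medium, and the NTHi[+] cells received heat-killed nontypeable Haemophilus influenzae (NTHi) strain 2019 at 100 bacteria per cell.

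With 1 array per condition no error can be given for a value and no difference has a replicate check. No p-value is therefore reported. The spread of the log2 ratios over genes, members included, is given for scale. It holds real differences between genes as well as noise and is not the error of any single value. A signal under 16.02, the median of all signals, was taken as not above background. Genes are called bright below where either array of a pair had a signal of 105 or more, the 75th percentile, and dim otherwise.

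The arrays resembled each other in RNA quality, with 3′ over 5′ signal ratios of 0.974 to 1.03 for GAPDH and 1.19 to 1.21 for ACTB. Of 11 monocytic genes with a probe set, 9 lay above background on all arrays. The summed signal of the 11 was 8952 and 8310 in Siglec-14,NTHi[+] and Siglec-14,NTHi[−], against 8851 and 9338 in Siglec-5,NTHi[+] and Siglec-5,NTHi[−]. LYZ had the largest signal in this sum, and single genes differed between the lines in both directions. In the same order, MPO had 1365 and 1152 against 2186 and 2408. TYROBP had 376 and 329 against 186 and 205, and ITGAM had 353 and 290 against 167 and 198. Whether the lines differ in monocytic state was not tested. CD14, the monocyte lipopolysaccharide coreceptor, was not above background on any array. Of 12 measured marker genes of T, B, erythroid, epithelial and fibroblast cells, 5 were under background on all arrays, and the sum was 469 and 475 in Siglec-14/THP-1, against 340 and 355 in Siglec-5/THP-1. Most of that gap lay in COL1A1, a collagen gene, with 257 and 266 against 132 and 141. Its part in the differences between the lines was not tested. SIGLEC5 had signals of 19.5 and 21.3 in Siglec-14/THP-1 and 21.6 and 4.13 in Siglec-5/THP-1, and no probe set was matched to SIGLEC14. The sources used here do not say whether the SIGLEC5 probe set reads the introduced sequence, so it does not check the labels.

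Cells take up most iron through the transferrin receptor encoded by TFRC, whose cargo leaves the endosome through the divalent metal transporter DMT1 (SLC11A2). The related NRAMP1 (SLC11A1) moves divalent metals out of phagosomes in macrophages. Ferritin, a shell of heavy (FTH1) and light (FTL) chains, stores iron, and ferroportin (SLC40A1) is the iron exporter. ZIP8 (SLC39A8) and ZIP14 (SLC39A14) import zinc as well as iron and manganese, and ZnT1 (SLC30A1) exports zinc. The iron regulatory proteins, of which IREB2 encodes one, bind stem-loops called iron responsive elements in messenger RNA. They protect TFRC transcripts and block the translation of ferritin when iron is scarce, so that RNA level and protein level can part. Monocytes and macrophages are known to redistribute both metals when they meet bacteria.

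The sequences below mark motifs in the DNA before the start, or for FTL just after it, in members with the clearest or steadiest values. They were taken from RefSeq sequence of build GRCh38.p14, which held a start site for 8 of the 10 genes, and each is written 5′ to 3′ on the gene's own strand. TFRC and SLC40A1 are shown for the 250 bases before the start of the transcript because their signals ran in opposite orders over the arrays. TFRC lies at chr3:196082091-196082340 on the minus strand, and its capitals mark the core of a hypoxia response element. Its metal response element cores, at 240 to 234, 140 to 134 and 137 to 131 bases before the start, are left in small letters.
TFRC: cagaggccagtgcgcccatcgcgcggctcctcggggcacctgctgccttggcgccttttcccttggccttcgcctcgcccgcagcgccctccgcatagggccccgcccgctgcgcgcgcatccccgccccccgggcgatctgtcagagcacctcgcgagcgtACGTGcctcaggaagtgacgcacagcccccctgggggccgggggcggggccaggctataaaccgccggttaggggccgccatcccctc
SLC40A1 lies at chr2:189580787-189581036 on the minus strand, and its capitals mark the core of a metal response element on either strand.
SLC40A1: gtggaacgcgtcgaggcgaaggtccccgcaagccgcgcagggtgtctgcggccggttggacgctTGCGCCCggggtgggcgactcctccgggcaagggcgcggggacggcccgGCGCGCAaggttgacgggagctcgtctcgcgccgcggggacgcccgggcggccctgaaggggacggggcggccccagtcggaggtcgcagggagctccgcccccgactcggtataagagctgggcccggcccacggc
SLC30A1 is shown at chr1:211579175-211579234 on the minus strand because its gene had the steadiest signal. The capitals mark its metal response element core, which reads on the opposite strand.
SLC30A1: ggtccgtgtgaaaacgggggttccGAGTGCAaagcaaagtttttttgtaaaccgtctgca
FTL is shown at chr19:48965332-48965358 on the plus strand, just after its start, with the loop of its iron responsive element in capitals.
FTL: tgtctcttgcttcaaCAGTGtttggac

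All motifs were searched on both strands of the 250 bases before the start, except the iron responsive element. The hypoxia response element core (ACGTG) was present once in TFRC, 88 to 84 bases before the start, as well as in FTL and at 2 of 3 start sites of SLC39A8, and in 18.5% of 35116 promoters. The metal response element core (TGCACNC or TGCGCNC) was found in SLC30A1, SLC40A1, TFRC, IREB2 and 1 of 3 start sites of SLC39A8, and in 24.8% of all promoters. The antioxidant response element core (TGACNNNGC) matched in SLC30A1 and in 10.9% of promoters. The E-box CACGTG, which contains the hypoxia response element core, matched at 1 start site of SLC39A8 and in 6.34% of promoters. A site for NF-κB, the inflammatory transcription factor, was found at 2 start sites of SLC39A8 and at 1 each of SLC11A2 and IREB2. It matched in 9.96% of promoters. The SLC39A8 windows overlap, and both matches are the same stretch of DNA. It lies 31 to 22 bases before a start site and 93 to 84 bases before another. The iron responsive element loop (a C, any 5 bases and CAGTG) was searched on the sense strand of the first 50 transcript bases. It occurred in FTL alone among the members with a start site, and in 1.67% of all start sites. The rest of each transcript was not searched, and FTH1 and SLC39A14 had no start site to search. A member without a match can therefore still hold the element elsewhere. These matches describe the letters of the windows and do not show that a factor binds.

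TFRC had the widest range of the 8 genes over the arrays, 3.90-fold. Its signal was 4893 in Siglec-14,NTHi[+] and 3101 in Siglec-14,NTHi[−], and 2326 in Siglec-5,NTHi[+] and 1256 in Siglec-5,NTHi[−]. The stimulated array was the higher of the pair in both lines, and both Siglec-14/THP-1 arrays lay above both Siglec-5/THP-1 arrays. A second bright probe set of the gene gave 2859 and 1836 in Siglec-14/THP-1 and 1263 and 665 in Siglec-5/THP-1, the same order. With NTHi the fold was 1.58 in Siglec-14/THP-1 and 1.85 in Siglec-5/THP-1 on the brighter probe set, and 1.56 and 1.90 on the other. As in any bulk sample, fewer cells expressing a gene and less RNA per cell cannot be told apart.

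On the log2 scale the TFRC response was 0.66 in Siglec-14/THP-1 and 0.89 in Siglec-5/THP-1. Over 8074 bright genes in Siglec-14/THP-1 the log2 ratio had a median of 0.10 and an SD of 0.23, and over 7937 in Siglec-5/THP-1 a median of -0.11 and an SD of 0.26. Among these bright genes, 1.91% had a log2 ratio at least as high as that of TFRC in Siglec-14/THP-1 and 0.592% in Siglec-5/THP-1. The response of Siglec-14/THP-1 minus that of Siglec-5/THP-1 was -0.23 on the log2 scale as deposited and between -0.31 and -0.50 with the other scalings. In signal units the stimulated array was higher by 1792 in Siglec-14/THP-1 and by 1070 in Siglec-5/THP-1. Over 5 scalings, the deposited values included, the TFRC fold with NTHi lay between 1.41 and 1.60 in Siglec-14/THP-1, with 2 of 5 at 1.5 or more, and between 1.85 and 1.99 in Siglec-5/THP-1, with 1.85 as deposited.

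The difference between the lines in TFRC was larger than the response to NTHi. The signal of Siglec-14/THP-1 was 2.10 times that of Siglec-5/THP-1 with NTHi and 2.47 times without. Of the bright genes, 3.06% had a ratio at least as high with NTHi and 1.65% without. Nonstimulated Siglec-14/THP-1 had 1.33 times the signal of stimulated Siglec-5/THP-1, the narrowest gap between neighbors in the order of the arrays. Over bright genes the SD of the log2 ratio between the lines was 0.49 with NTHi and 0.48 without, against 1.07 and 1.30 for TFRC.

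**Figure D1:**
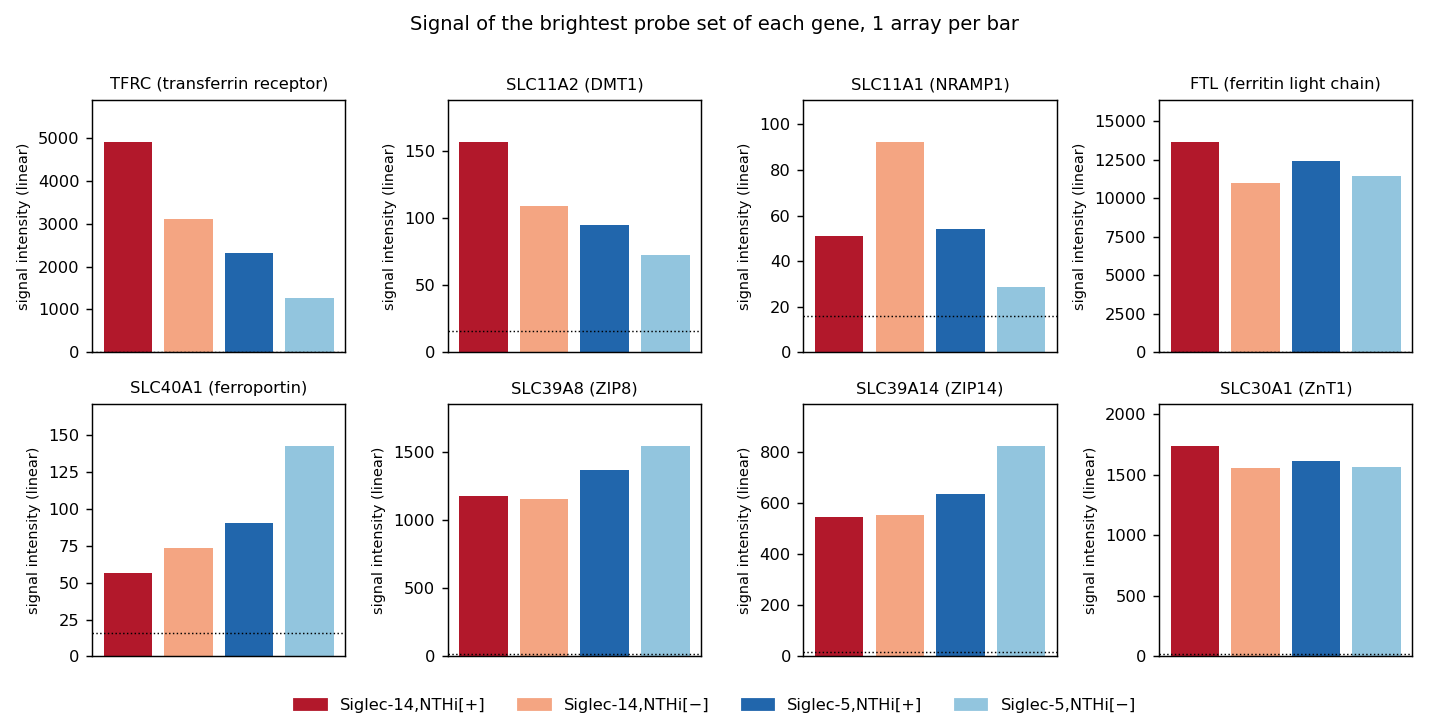
Signal intensity on a linear scale (y axis) of the brightest probe set of each of the 8 measured genes, with 1 bar per array and the dotted line at 16.02, under which a signal was not above background. TFRC was highest in Siglec-14,NTHi[+] (4893) and lowest in Siglec-5,NTHi[−] (1256), SLC40A1 ran in the opposite order between 56.6 and 143, and SLC30A1 stayed between 1559 and 1737.

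The other transporters of the uptake route gave smaller or less even values. DMT1 (SLC11A2), which passes iron from the endosome to the cytoplasm, had signals of 157 in Siglec-14,NTHi[+] and 109 in Siglec-14,NTHi[−], and 95.3 in Siglec-5,NTHi[+] and 72.4 in Siglec-5,NTHi[−]. This is the order seen for TFRC, at 1.43-fold and 1.32-fold with NTHi. All 5 probe sets of the gene were above background on all arrays, and all 5 were higher with NTHi in both lines, by 1.04- to 1.43-fold in Siglec-14/THP-1 and 1.09- to 1.51-fold in Siglec-5/THP-1. The line difference rested on the brightest probe set, which was 1.64-fold higher in Siglec-14/THP-1 with NTHi and 1.51-fold without. Over the 5 probe sets the ratio ran from 0.826 to 1.64 with NTHi and from 0.824 to 1.51 without, with 3 of 5 above 1 in each condition.

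NRAMP1 (SLC11A1), the phagosomal metal transporter, had 3 probe sets above background on all arrays, and they disagreed. The brightest gave 50.8 in Siglec-14,NTHi[+] and 92.1 in Siglec-14,NTHi[−], against 54.0 and 28.8 in the Siglec-5 counterparts, so that the signal was lower with NTHi in Siglec-14/THP-1 and higher in Siglec-5/THP-1. A second gave 31.5 and 31.4 in Siglec-14/THP-1 and 21.3 and 19.4 in Siglec-5/THP-1. The remaining one gave 51.9 and 60.2 against 46.1 and 53.0. The 3 probe sets did not share a direction with NTHi in either line. All 3 were higher in nonstimulated Siglec-14/THP-1, but by 1.13- to 3.20-fold. All lay below the 75th percentile of signals, where the SD of log2 ratios over dim genes was 0.44 with NTHi in each line.

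The storage and export genes ran in different orders over the arrays. FTL, the ferritin light chain, had 13646 in Siglec-14,NTHi[+] and 11009 in Siglec-14,NTHi[−], and 12416 in Siglec-5,NTHi[+] and 11483 in Siglec-5,NTHi[−]. The signal was 1.24-fold higher with NTHi in Siglec-14/THP-1 and 1.08-fold in Siglec-5/THP-1, and 1.15- and 1.06-fold on its other probe set. Its line ratios were 1.099 with NTHi and 0.959 without, the second on either side of 1 under other scalings. A probe set listed for the ferritin heavy chain pseudogene FTH1P5, which is no member, had 10189 and 7611 in Siglec-14/THP-1 and 5309 and 3530 in Siglec-5/THP-1. Its folds were 1.34 and 1.504 with NTHi, and 1.92 with and 2.16 without NTHi between the lines. Whether it reads FTH1 was not tested.

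Ferroportin (SLC40A1), which exports iron, had the reverse order of TFRC. Its signals were 56.6 in Siglec-14,NTHi[+] and 73.7 in Siglec-14,NTHi[−], and 90.4 in Siglec-5,NTHi[+] and 143 in Siglec-5,NTHi[−]. Both stimulated arrays were lower than their nonstimulated counterparts, and both Siglec-14/THP-1 arrays were lower than both Siglec-5/THP-1 arrays. The signal with NTHi was 0.769 times that without in Siglec-14/THP-1 and 0.634 times in Siglec-5/THP-1, and Siglec-14/THP-1 had 0.627 times the signal of Siglec-5/THP-1 with NTHi and 0.517 times without. The log2 ratio with NTHi was -0.38 in Siglec-14/THP-1, where the SD over dim genes was 0.44, and -0.66 in Siglec-5/THP-1, where the gene counted as bright and the SD was 0.26. Between the lines it was -0.67 with NTHi, against an SD of 0.55 over dim genes, and -0.95 without, against 0.48 over bright genes. SLC40A1 counted as bright only through Siglec-5,NTHi[−], the array where its signal was highest. Over dim genes the SD was 0.44 with NTHi in Siglec-5/THP-1 and 0.55 between the nonstimulated lines. Scaling the arrays in other ways kept the directions of the SLC40A1 ratios, but the ratio with NTHi in Siglec-5/THP-1 then reached 0.695. That ratio was at least 1.5-fold lower in 2 of 5 scalings, the deposited values included. The SLC40A1 ratios rest on a single probe set, since the other one of the gene was above background only in Siglec-5/THP-1. There it had 19.4 with and 16.6 without NTHi, a fold of 1.17 that ran opposite to the brightest probe set.

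The zinc transporters among the members had folds with NTHi between 0.773 and 1.11 on their brightest probe sets. ZnT1 (SLC30A1), the zinc exporter of the plasma membrane and a known target of the zinc sensor MTF1, had 1737 and 1559 in Siglec-14,NTHi[+] and Siglec-14,NTHi[−], against 1617 and 1567 in Siglec-5,NTHi[+] and Siglec-5,NTHi[−]. The highest of the 4 arrays was 1.11 times the lowest, the narrowest range of the 8 genes, and its ratio between the lines lay on either side of 1 under other scalings in both conditions. Its second probe set gave 183 and 185 against 151 and 156.

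ZIP8 (SLC39A8), a zinc importer and a known NF-κB target in monocytes, had 1175 and 1150 in Siglec-14/THP-1 and 1367 and 1540 in Siglec-5/THP-1 with and without NTHi. Its fold with NTHi was 1.02 in Siglec-14/THP-1, which ran from 0.931 to 1.03 under other scalings, and 0.888 in Siglec-5/THP-1. Siglec-14/THP-1 had 0.860 times the signal of Siglec-5/THP-1 with NTHi and 0.747 times without. A second probe set gave 217 and 199 in Siglec-14/THP-1 and 218 and 281 in Siglec-5/THP-1, lower in the Siglec-14 array of both pairs. On the dimmest probe set above background, which stayed between 16.5 and 20.96, the line difference ran the other way.

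ZIP14 (SLC39A14), which carries zinc and iron not bound to transferrin, had 546 and 552 in Siglec-14/THP-1 with and without NTHi, and 636 and 822 in Siglec-5/THP-1. The fold with NTHi was 0.989 in Siglec-14/THP-1, on either side of 1 under other scalings, and 0.773 in Siglec-5/THP-1. Nonstimulated Siglec-14/THP-1 had 0.671 times the signal of nonstimulated Siglec-5/THP-1, and with NTHi the ratio was 0.858. A dimmer probe set, above background on 3 of 4 arrays, gave 20.4 and 29.9 in Siglec-14/THP-1 and 27.3 and 15.8 in Siglec-5/THP-1 and did not share this order.

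**Figure D2:**
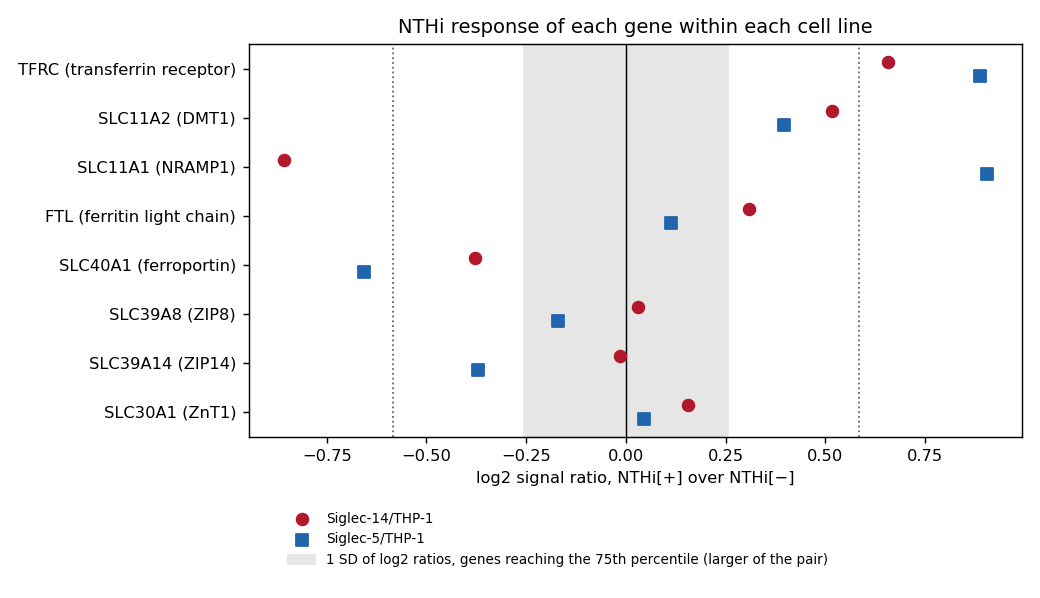
Log2 ratio of the NTHi[+] to the NTHi[−] signal (x axis) of each gene's brightest probe set, with circles for Siglec-14/THP-1 and squares for Siglec-5/THP-1, the grey band at 1 SD of bright genes and dotted lines at 1.5-fold. TFRC lay beyond 1.5-fold in both lines, and SLC11A1 lay beyond it on opposite sides.

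Between 2 and 4 of the 8 members differed by 1.5-fold or more in each comparison. With NTHi, 1 of 8 was at least 1.5-fold higher in Siglec-14/THP-1 (TFRC) and 1 lower (SLC11A1), where 5.08% of 13210 measured genes were higher and 3.13% lower. TFRC did not pass with equal sums, quantile normalization or the trimmed mean. In Siglec-5/THP-1, 2 were higher (TFRC and SLC11A1) and 1 lower (SLC40A1), where 3.18% of 13014 genes were higher and 5.31% lower. SLC40A1 did not pass there with equal medians, quantile normalization or the trimmed mean, so that 2 were higher and 0 lower. With NTHi the median log2 ratio of the members was 0.09 in Siglec-14/THP-1 and 0.08 in Siglec-5/THP-1, beside 0.08 and -0.11 over all measured genes. Between the stimulated lines 2 were higher in Siglec-14/THP-1 (TFRC and SLC11A2) and 1 lower (SLC40A1), where 11.6% of 13099 genes were higher and 4.91% lower. Between the nonstimulated lines 3 were higher (TFRC, SLC11A1 and SLC11A2) and 1 lower (SLC40A1), where 8.13% of 13284 genes were higher and 8.61% lower. With equal medians SLC11A2 was at 1.48-fold and SLC39A14 at 1.52-fold lower, so that 2 were higher and 2 lower. The line comparisons share their arrays with the NTHi comparisons, so their values are not independent of them. The median log2 ratio of the members between the lines was 0.01 with NTHi and -0.03 without, beside 0.06 and -0.12 over all measured genes.

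At 2-fold no member passed with NTHi in either line, where 1.17% of genes were higher and 0.621% lower in Siglec-14/THP-1, and 0.876% higher and 0.884% lower in Siglec-5/THP-1. Between the stimulated lines TFRC passed, where 4.36% were higher and 0.962% lower. Between the nonstimulated lines TFRC and SLC11A1 passed, where 3.19% were higher and 1.43% lower. At 3-fold, the limit of the study's own screen, SLC11A1 between the nonstimulated lines was the 1 value to pass, on its brightest probe set and on no other. There 1.21% of genes were higher and 0.113% lower. The shares past 3-fold elsewhere, higher and then lower, were 0.189% and 0.0681% for the NTHi response of Siglec-14/THP-1, 0.261% and 0.0384% for that of Siglec-5/THP-1, and 1.63% and 0.0382% between the stimulated lines.

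**Figure D3:**
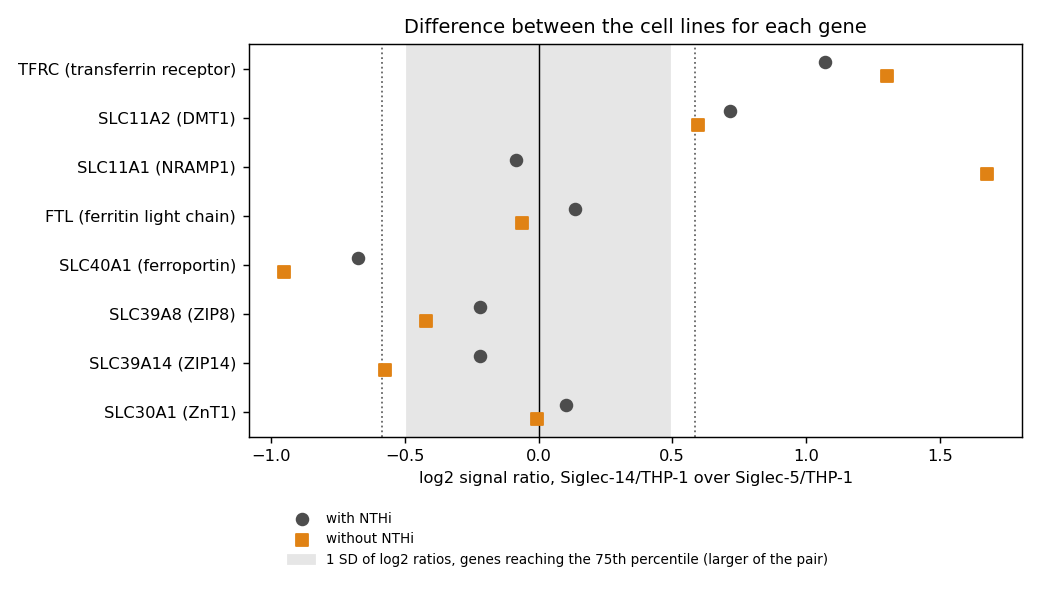
Log2 ratio of the Siglec-14/THP-1 to the Siglec-5/THP-1 signal (x axis) of each gene's brightest probe set, with circles for arrays with NTHi and squares for arrays without, the grey band at 1 SD of bright genes and dotted lines at 1.5-fold. TFRC lay at 1.07 and 1.30, SLC40A1 at -0.67 and -0.95, and FTL and SLC30A1 near 0.

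The probe sets of a gene are the only repeated measure on these arrays. The members had 32 probe sets, of which 19 were above background on all arrays, 4 on some and 9 on none. The 2 bright probe sets of TFRC shared their direction in all 4 comparisons, with line ratios of 2.10 and 2.26 in stimulated cells, and of 2.47 and 2.76 in nonstimulated cells. The 2 of FTL also did. For SLC11A1, SLC11A2, SLC39A8 and SLC30A1 at least 1 comparison had probe sets above background on all arrays on both sides of 1. SLC40A1 and SLC39A14 had only 1 probe set above background on all arrays. With NTHi in Siglec-5/THP-1 a dimmer probe set of each ran opposite to the brightest one, for SLC39A14 with 1 signal under background.

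**Figure D4:**
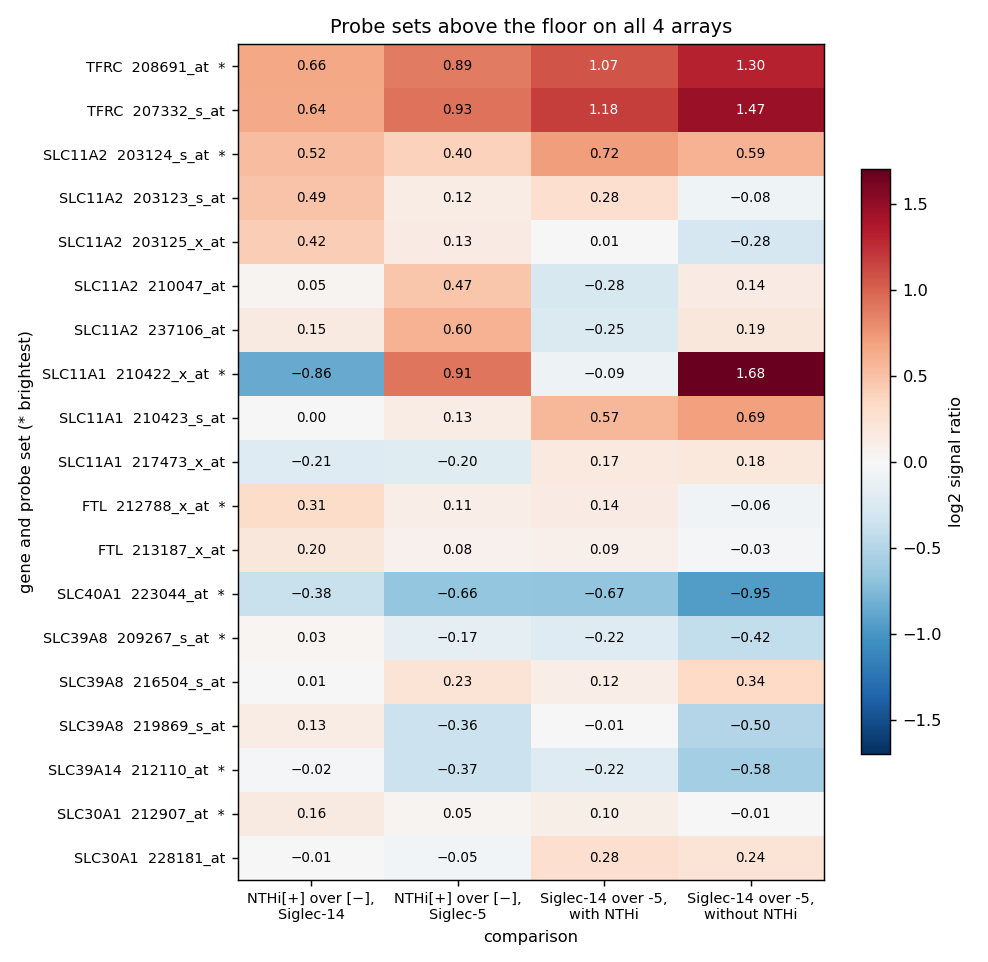
Log2 signal ratios (color and printed value) of the 19 probe sets above background on all 4 arrays, 1 row per probe set and 1 column per comparison, with the brightest of each gene marked by an asterisk. Both rows of TFRC are positive throughout, whereas the rows of SLC11A1 differ in sign and size.

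Genes whose pattern over the 4 arrays was nearest to that of TFRC were sought among 7334 genes at or above 105 on all arrays by the distance between log2 signals centered on each gene's mean. The nearest were SDC4, a syndecan, at a distance of 0.20, SQSTM1, the autophagy receptor p62, at 0.21, and CD83, an activation marker of dendritic cells, at 0.23. DDIT4, a stress-induced inhibitor of mTORC1, followed at 0.30 and CD82, a tetraspanin, at 0.32. SDC4 for example had 448 and 265 in Siglec-14/THP-1 and 230 and 129 in Siglec-5/THP-1 with and without NTHi. With only 4 points per gene, this is a description of the arrays.

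With NTHi few other genes of iron and zinc handling passed 1.5-fold, as did few of all measured genes. Those shares were 5.08% higher and 3.13% lower in Siglec-14/THP-1, and 3.18% higher and 5.31% lower in Siglec-5/THP-1. In lists this small, counts of 0 or 1 do not set the genes apart from these shares. Of 16 genes of iron uptake and recycling, 12 were above background on at least 1 array. With NTHi, 1 of 11 was at least 1.5-fold higher in Siglec-14/THP-1, the heme transporter SLC48A1 with 94.4 and 62.0, and 0 of 10 in Siglec-5/THP-1, where 1 was lower, beside 5.08% of all measured genes higher in Siglec-14/THP-1 and 5.31% lower in Siglec-5/THP-1. SLC48A1 passed in 2 of 5 scalings, the deposited values included, with folds of 1.39 to 1.54. The gene that was lower, the transferrin receptor homolog TFR2, had 10.5 with NTHi, under background, and 46.3 without, at least 2.89-fold lower. SLC48A1 and TFR2 did not reach the 75th percentile and were named after their values were seen. STEAP3, the endosomal reductase that prepares transferrin iron for DMT1, had 134 and 113 in Siglec-14/THP-1 and 198 and 207 in Siglec-5/THP-1 with and without NTHi. It was thus 1.48-fold lower in Siglec-14/THP-1 with NTHi and 1.82-fold lower without, opposite to TFRC. Over the list, 3 of 9 were at least 1.5-fold higher in Siglec-14/THP-1 with NTHi and 0 lower, beside 11.6% and 4.91% of all measured genes. Without NTHi 2 of 12 were higher and 2 lower, beside 8.13% and 8.61%. With the other scalings 2 or 3 were higher and 1 lower with NTHi.

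Of 9 genes of iron storage, export and sensing above background on at least 1 array, none was 1.5-fold different in any comparison. At the shares of all measured genes given above, this does not set the list apart. The 9 genes included NCOA4, the receptor for ferritin autophagy, with 2626 and 2236 in Siglec-14/THP-1 and 2558 and 2587 in Siglec-5/THP-1. ACO1, whose product is the other iron regulatory protein, had 183 and 156 against 187 and 181. FBXL5, the iron-sensing ubiquitin ligase subunit that degrades iron regulatory proteins, had 622 and 603 against 549 and 622. Hepcidin (HAMP), the hormone that removes ferroportin from the cell surface, was above background only in Siglec-5,NTHi[−], at 17.4.

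Of 6 genes of mitochondrial iron use above background, none was 1.5-fold different with NTHi, beside the shares of all measured genes given above. The mitochondrial iron importer mitoferrin-1 (SLC25A37) had 189 and 192 in Siglec-14/THP-1 and 107 and 147 in Siglec-5/THP-1, 1.76-fold higher in Siglec-14/THP-1 with NTHi and 1.31-fold without. NFS1, the cysteine desulfurase of iron-sulfur cluster assembly, had 318 and 280 against 391 and 438, 1.23-fold lower with NTHi and 1.56-fold lower without, the second past 1.5-fold in 2 of 5 scalings.

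Of 12 other ZIP importers 10 were above background, and of 9 other ZnT exporters 8. None of these was 1.5-fold different with NTHi in either line, beside the shares of all measured genes given above. SLC39A3, a ZIP importer, had 927 and 908 in Siglec-14/THP-1 and 1456 and 1341 in Siglec-5/THP-1, 1.57-fold lower with NTHi and 1.48-fold lower without. SLC39A11, another ZIP protein, had 186 and 166 against 222 and 275, 1.19-fold and 1.66-fold lower. No ZnT gene was 1.5-fold different between the lines. Of all measured genes, 11.6% were higher and 4.91% lower in Siglec-14/THP-1 with NTHi, and 8.13% and 8.61% without. MTF1 had 228 and 197 in Siglec-14/THP-1 and 277 and 217 in Siglec-5/THP-1, 1.15-fold and 1.28-fold higher with NTHi.

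**Figure D5:**
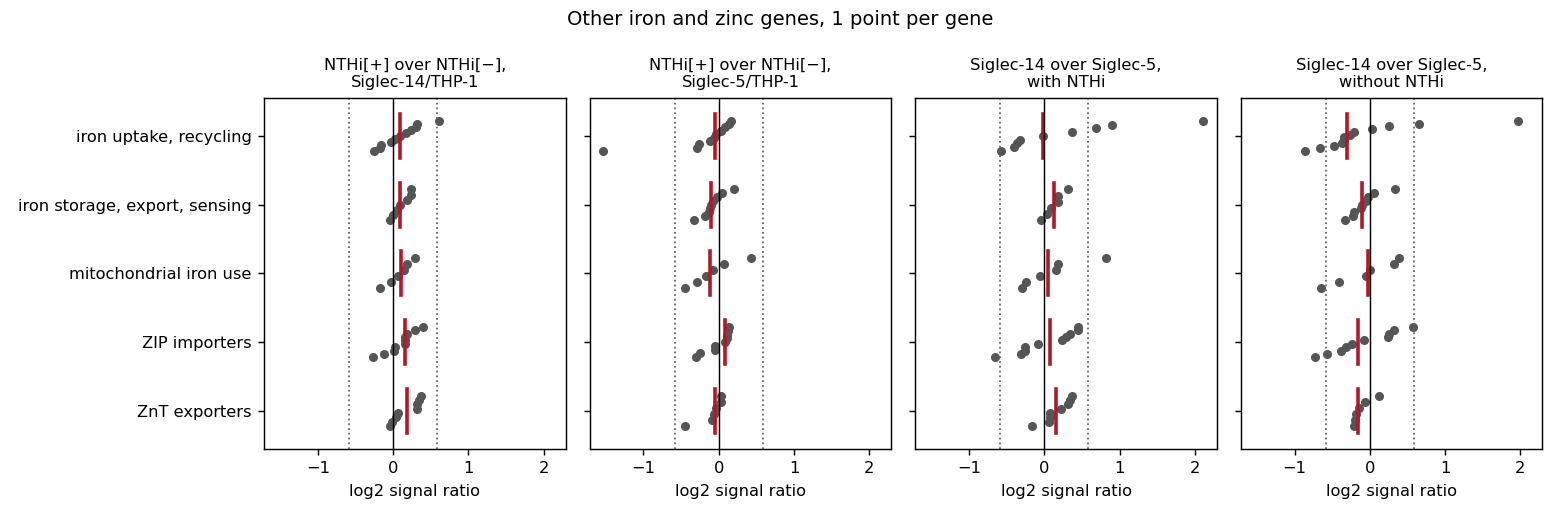
Log2 signal ratios (x axis) of the other iron and zinc genes above background on at least 1 array of the pair, with 1 point per gene, 1 row per list, the list's median in red and dotted lines at 1.5-fold. A signal under background was raised to 16.02, so some outlying points are bounds. The medians lie between -0.30 and 0.19.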

How the data were processed

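Total RNA (250 ng per array) from 4 cell samples was labelled and measured on Affymetrix U133 Plus 2.0 arrays. Per the labels and methods, the authors read signals out with GCOS (no version stated in the sources used here) and standardized the signals on the cumulative intensity of all probes. The deposited column of each array holds linear signal intensities of 54675 probe sets. Their sums ran from 12735500 to 14047100, so it is unclear whether they carry that standardization. They were used without further scaling. Such signals set no probe set's level against another's, and each low one holds background.

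The platform annotation assigns 1 gene to 41097 probe sets, several to 1801 and none to 11777. A gene was represented by its probe set with the highest mean signal. A ratio with 1 signal under the floor of 16.0 was computed against the floor, and none was computed with both under it. With 1 array per condition no test was run. The calculation was tested on simulated data. All members were named, with list genes at least 1.5-fold different that reached the 75th percentile and the 5 genes nearest TFRC. Alternatives were 4 scalings, floors at the 25th (4.09) and 75th (105) percentile or none, other choices among probe sets, a pseudocount of 16 and thresholds of 2- and 3-fold. Members and lists were chosen with earlier results of these data known. Python 3.11.15, numpy 2.4.6, pandas 2.3.3 and matplotlib 3.10.9 were used.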

Additional observations from a re-analysis of the deposited data

Results flagged for a closer look

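The NTHi response ran in opposite directions in the lines for 2 members whose signals were above background on all arrays. For SLC11A1 the log2 response of Siglec-14/THP-1 minus that of Siglec-5/THP-1 was -1.76 on its brightest probe set, with 0.552 times the nonstimulated signal in Siglec-14/THP-1 and 1.87 times in Siglec-5/THP-1. Its other probe sets did not share this difference. For SLC39A8 the difference was 0.20, from folds of 1.02 and 0.888, and the first lies on either side of 1 when the arrays are scaled in other ways. Neither difference was tested, since each condition has 1 array.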

How the results depend on the processing

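TFRC kept its direction in all 4 comparisons under all 10 alternatives run on it, with folds of 1.41 to 1.68 with NTHi in Siglec-14/THP-1, 1.84 to 2.10 in Siglec-5/THP-1, 1.95 to 2.22 between the stimulated lines and 2.42 to 2.85 between the nonstimulated lines. Its response in Siglec-14/THP-1 minus that in Siglec-5/THP-1, -0.23 as deposited, lay between -0.23 and -0.50. In Siglec-14/THP-1 the fold was under 1.5 with equal sums, quantile normalization and the trimmed mean. No paired analysis was possible because each condition has 1 array and the labels give no replicate numbers, and for the same reason no array could be left out.

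The number of members at least 1.5-fold different was 2 with NTHi in Siglec-14/THP-1, 3 in Siglec-5/THP-1, 3 between the stimulated and 4 between the nonstimulated lines. In Siglec-14/THP-1 it was 1 with equal sums, quantile normalization, the trimmed mean, the floor at the 75th percentile, the geometric mean of probe sets, and probe sets without a cross-hybridization suffix. In Siglec-5/THP-1 it was 1 with the floor at the 75th percentile and with the geometric mean, and 2 with equal medians, quantile normalization, the trimmed mean or a pseudocount of 16, where SLC40A1 no longer passed. Between the stimulated lines it was 1 with the floor at the 75th percentile and with the geometric mean, and stayed at 3 with the other scalings. Between the nonstimulated lines it was 1 with that floor and 2 with the geometric mean or without suffixes, and with equal medians SLC39A14 took the place of SLC11A2. At 2-fold the counts were 0, 0, 1 and 2 in the same order, and at 3-fold 0, 0, 0 and 1.

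The median log2 ratio of the members was 0.09 with NTHi in Siglec-14/THP-1, 0.08 with NTHi in Siglec-5/THP-1, and 0.01 and -0.03 between the stimulated and nonstimulated lines. With NTHi in Siglec-14/THP-1 it was -0.041 with equal sums and 0.23 with the floor at the 75th percentile. In Siglec-5/THP-1 it was 0.18 with the trimmed mean and -0.063 with that floor or without suffixes. Between the stimulated lines it was -0.10 with equal medians, 0.12 with that floor and -0.22 without suffixes. Between the nonstimulated lines it was 0.11 with equal sums, quantile normalization or the trimmed mean, and -0.24 without suffixes. Scaling also moved the median of all genes, with NTHi in Siglec-14/THP-1 to -0.05 with equal sums, against 0.08 as deposited, and between the nonstimulated lines to 0.02 against -0.12.

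Of the values at least 1.5-fold different, those that changed sign did so with another choice of probe set. With the geometric mean SLC11A1 had log2 ratios of 0.064 with NTHi in Siglec-14/THP-1, -0.32 in Siglec-5/THP-1 and -0.028 between the nonstimulated lines, and a response difference of 0.38. Without suffixes it was represented by a dim probe set at -0.42 with NTHi in Siglec-5/THP-1 and -0.42 between the nonstimulated lines, both against the floor, and SLC11A2 was -0.28 between the stimulated lines. The signals of SLC11A1 were dim on all arrays, and a single array per condition limits what any of these values can show.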

Other observations

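Genes of heme handling were named here after their values were seen. HMOX1, heme oxygenase 1, which frees iron from heme, had signals of 84.2 and 68.3 in Siglec-14,NTHi[+] and Siglec-14,NTHi[−], against 19.5 and 17.4 in Siglec-5,NTHi[+] and Siglec-5,NTHi[−]. It was 4.32-fold higher in Siglec-14/THP-1 with NTHi and 3.92-fold without, and 1.23-fold and 1.12-fold higher with NTHi within the lines. The heme transporter family member FLVCR2 had 57.1 and 50.7 against 35.5 and 32.1, 1.61-fold and 1.58-fold higher in Siglec-14/THP-1, the first past 1.5-fold in 3 of 5 scalings. FLVCR1, which exports heme, had 840 and 677 against 847 and 871, with ratios of 0.993 and 0.777. ALAS1, the first enzyme of heme synthesis, had 1409 and 1154 against 1243 and 926, and was 1.22-fold higher with NTHi in Siglec-14/THP-1 and 1.34-fold in Siglec-5/THP-1.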
